A study of Saccharomyces cerevisiae with 54 samples.

Results

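The MMTT and SS strains were compared after 5 h 40 min in sporulation medium, the time point before the last one sampled. The comparison used the raw-count libraries of both strains at that time, MMTT replicates 1 and 2 against SS replicates 1, 2 and 3, which are 5 of the 49 libraries the study kept. MMTT replicate 3 was also sequenced at that time but is among the 5 of 54 libraries that the study left out, and its values are given beside the others as a check. The strains were diploids of the S288c background. MMTT carried the SK1 alleles MKT1(89G) and TAO3(4477C), each swapped into the genome and homozygous, and SS was the wildtype. Each strain was 1 diploid, the MMTT one made by crossing haploids that held both SNPs, so a strain difference cannot be told apart from anything else particular to that diploid. Cells of both strains were grown in YPD and then YPA and moved to potassium acetate medium with amino acid supplements. The question was which transcripts differ in level when both SNPs are present together.

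The alleles are single base changes, shown here because they define the strains. Both stretches were read from the RefSeq sequence of the R64 assembly, which holds the SS base, on the strand of the gene, with that base in capitals. MKT1 (YNL085W) encodes a regulator of mRNAs after transcription. Its substitution A89G, counted from the A of the start codon, lies at chrXIV:467219 within the stretch chrXIV:467197-467241 of the plus strand, in a coding sequence of 2493 bases. TAO3 (YIL129C) encodes a scaffold of the network that controls the kinase Cbk1. Its substitution G4477C lies at chrIX:108761 within chrIX:108739-108783 of the minus strand, in a coding sequence of 7131 bases.
MKT1: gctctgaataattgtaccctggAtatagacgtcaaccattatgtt
TAO3: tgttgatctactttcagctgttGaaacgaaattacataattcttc

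Budding yeast diploids that lack nitrogen and a fermentable sugar enter meiosis and wrap the products in spores. The regulator Ime1 and the kinase Ime2 switch on early genes, for premeiotic DNA replication and recombination, many of which carry the URS1 element bound by Ume6. The activator Ndt80 then turns on middle genes, for the divisions, the prospore membrane and the spore wall, through the middle sporulation element (MSE), which the repressor Sum1 also binds.

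The 6 libraries held 2714693 to 5022366 counts, against a median of 3641591 over the 49. A gene at 3 CPM (counts scaled to a common library size, with TMM factors) in a library of median size has 10.9 counts and a counting error of 30.3%. All pairs of replicates differed by more than counting noise, with chi-square values per degree of freedom of 10.2 between MMTT replicates 1 and 2, 14.2 and 17.97 between these and replicate 3, and 15.4 to 54.3 among the SS libraries. Over the 300 most variable genes, each of the 6 libraries was closest to a library of its own strain from another time. MMTT replicate 1 was closest to an MMTT library of 3 h 50 min, with replicate 2 next. MMTT replicate 2 was closest to an MMTT library of 2 h 30 min, at a distance of 14.1, against 18.95 from replicate 1. MMTT replicate 3 and SS replicate 1 stood further apart, with no library of 5 h 40 min among their 3 nearest. MMTT replicate 3 was closest to an MMTT library of 1 h 10 min, at distances of 25.5 and 27.4 from the other MMTT libraries of 5 h 40 min and 28.2 to 31.8 from the SS ones. SS replicate 1 was closest to the 3 SS libraries of 8 h 30 min, whereas SS replicates 2 and 3 were closest to SS libraries of 3 h 50 min. The labels do not say whether replicates came from separate cultures, so p-values here measure only the spread between libraries. That spread was estimated over all 49 libraries in 18 groups, not from those of 5 h 40 min alone.

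MMTT differed from SS in many genes, and the large differences ran upward. Of 6031 genes tested, 159 (2.64%) were called higher in MMTT and 9 (0.149%) lower, at an adjusted p under 0.05 in edgeR's quasi-likelihood test and a change of over 2 on the log2 scale. With no fold threshold the directions were balanced, at 699 genes higher (11.6%) and 715 lower (11.9%), and the median over all genes was -0.06. The genes called higher were mostly near silence in SS, with a median level of 12.4 CPM in MMTT and 1.42 CPM in SS. MMTT replicates 1 and 2 both lay above every SS library at 158 of the 159, against 22.7% of all genes tested, and below every SS library at 9 of the 9 called lower, against 22.8%, but the calls were made on these same libraries and nothing is read from those shares. Of the 159, 97 have an entry in the R64 annotation and 62 do not, out of 320 tested without one. The count fell to 95 without MMTT replicate 2 and to 94 without SS replicate 2, and the lower count of 9 became 4 without MMTT replicate 2 and 14 without SS replicate 1. The plot of every gene shows spore genes and transcripts of the mitochondrial genome above the upper threshold.

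**Figure D1:**
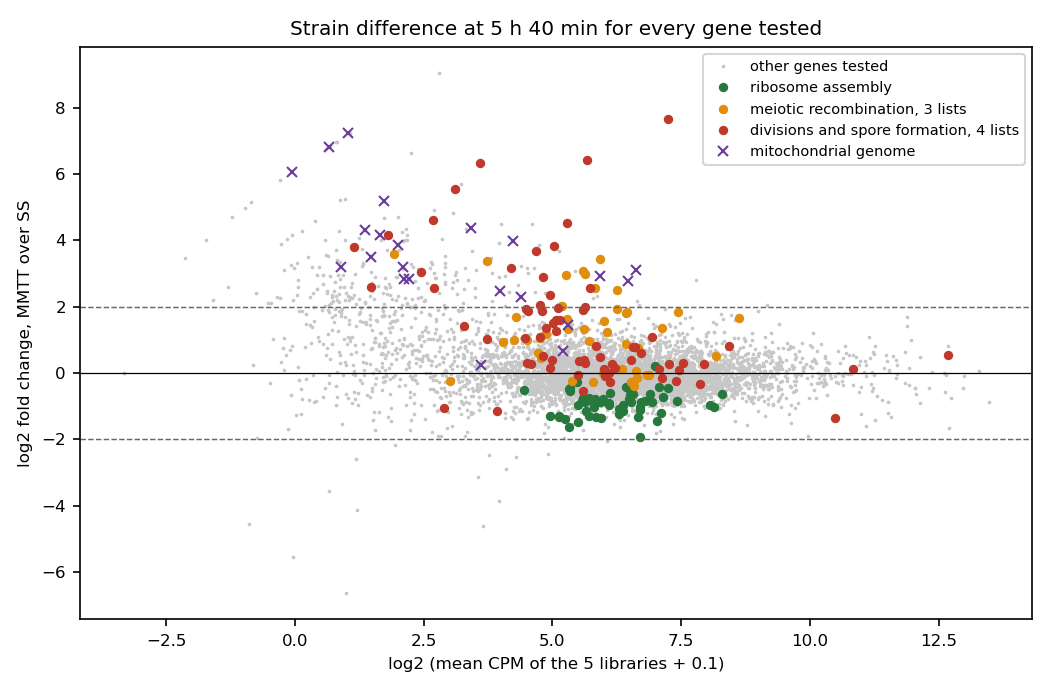
Strain difference of each gene tested (log2 fold change, MMTT over SS) against its mean level in the 5 libraries (log2 of CPM plus 0.1), with 4 groups of genes coloured and dashed lines at -2 and 2. Recombination and spore genes spread upward, ribosome assembly genes lie below 0 at a median of -0.88, and mitochondrial transcripts sit high at low levels.

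Sequences upstream of some of the genes called higher are shown next, since early and middle genes are told apart there. The genes were listed by hand. The 5 shown with an MSE core are among the 12 genes named below as higher, which were taken by the size of their fold change. The 5 shown with a URS1 core are among the 9 called members of the recombination lists. Every stretch shown holds a core, so the stretches do not stand for the called genes as a whole. The window was the 300 bases before the start codon in R64, both strands were searched, and the motif letters can overlap each other. The MSE core GNCACAAA was found in 237 of 5685 windows of genes tested (4.17%) and in 33 of the 83 windows of genes called higher (39.8%). The URS1 core GCCGCC was found in 301 of 5685 (5.29%) and in 17 of these 83 (20.5%). Of the 18 called members of the division and spore lists described below, 15 had the MSE core and 1 the URS1 core, and of the 9 called members of the recombination lists 7 had the URS1 core and 0 the MSE core. A match describes letters only and marks neither a site nor a cause. Each stretch below runs 5′ to 3′ on the strand of its gene, with the core nearest the start codon in capitals. A core reads as TTTGTGNC or GGCGGC where it lies on the other strand. The stretches of SPR2 and MEK1 each hold a further core, left in lower case. OSW1 had no MSE core in its window. The first 5 are MSE cores, of SPS4 (chrXV:903039-903086, minus strand), SPS2 (chrIV:1485306-1485353, minus), LDS1 (chrI:119692-119739, minus), DTR1 (chrII:589580-589627, plus) and SPR2 (chrXV:746521-746568, minus). The other 5 are URS1 cores, of HOP2 (chrVII:435476-435521, plus), MEI5 (chrXVI:321731-321776, minus), NDJ1 (chrXV:117517-117562, minus), MEK1 (chrXV:996620-996665, minus) and SPO13 (chrVIII:131932-131977, plus).
SPS4: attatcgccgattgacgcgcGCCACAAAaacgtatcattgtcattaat
SPS2: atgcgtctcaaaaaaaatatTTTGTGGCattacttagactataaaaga
LDS1: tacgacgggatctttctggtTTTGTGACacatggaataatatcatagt
DTR1: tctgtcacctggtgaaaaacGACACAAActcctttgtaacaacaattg
SPR2: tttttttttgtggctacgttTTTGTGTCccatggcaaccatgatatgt
HOP2: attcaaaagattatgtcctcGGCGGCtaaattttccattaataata
MEI5: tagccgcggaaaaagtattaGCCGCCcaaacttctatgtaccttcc
NDJ1: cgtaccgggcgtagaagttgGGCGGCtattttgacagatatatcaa
MEK1: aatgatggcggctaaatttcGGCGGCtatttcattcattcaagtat
SPO13: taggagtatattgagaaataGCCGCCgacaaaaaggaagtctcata

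The genes that carry the SNPs differed little in level. MKT1 had 134 and 102 CPM in MMTT (139 in replicate 3) and 126, 132 and 127 CPM in SS, a log2 fold change of -0.12 (SE 0.19, adjusted p = 0.67). TAO3 had 138 and 98.0 CPM in MMTT (127 in replicate 3) and 144, 182 and 156 CPM in SS. It was lower in MMTT by its fitted value of -0.45 (SE 0.16, adjusted p = 0.041), and this rested on single libraries, with an adjusted p of 0.54 without MMTT replicate 2 and 0.13 without SS replicate 2.

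The regulators of entry and of the middle genes showed small differences at this time. IME1 (YJR094C), the master activator, had 416 and 218 CPM in MMTT (237 in replicate 3) and 35.5, 536 and 285 CPM in SS. The strains overlapped and the SS libraries spread widely, with replicate 1 lowest, so the log2 fold change of 0.14 had an SE of 0.55 (adjusted p = 0.88). IME2 (YJL106W), the kinase, rose to 383 and 205 CPM in MMTT (182 in replicate 3), against 127, 128 and 134 CPM in SS (log2 fold change 1.18, SE 0.38, adjusted p = 0.022), though not without MMTT replicate 1 (adjusted p = 0.31) or SS replicate 2 (0.051). NDT80 (YHR124W), the middle activator, had 47.4 and 46.8 CPM in MMTT (29.0 in replicate 3) and 20.02, 24.7 and 26.4 CPM in SS. Its log2 fold change was 0.98 (SE 0.33, adjusted p = 0.03), and it no longer passed the test when any 1 of the 5 libraries was left out, at adjusted p-values of 0.05 to 0.13, and when replicate 3 was added (0.051). SUM1 (YDR310C), the repressor of middle genes, was lower in every MMTT library, at 102 and 109 CPM (109 in replicate 3) against 146, 169 and 159 CPM in SS (log2 fold change -0.58, SE 0.14, adjusted p = 0.0028). UME6 and RME1, repressors of early genes and of IME1, had log2 fold changes of -0.04 and -0.08 and did not pass the test. Of the 12 entry regulators tested, 5 rose and 2 fell (SUM1 and RIM15, a kinase of nutrient starvation, at -0.95, with an adjusted p of 0.061 without MMTT replicate 2), 0 were called, and the median was 0.18. SLZ1 (YNL196C), a subunit of the complex that methylates meiotic mRNAs, had the largest value of these, at 1.77 (SE 0.45, adjusted p = 0.0047).

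**Figure D2:**
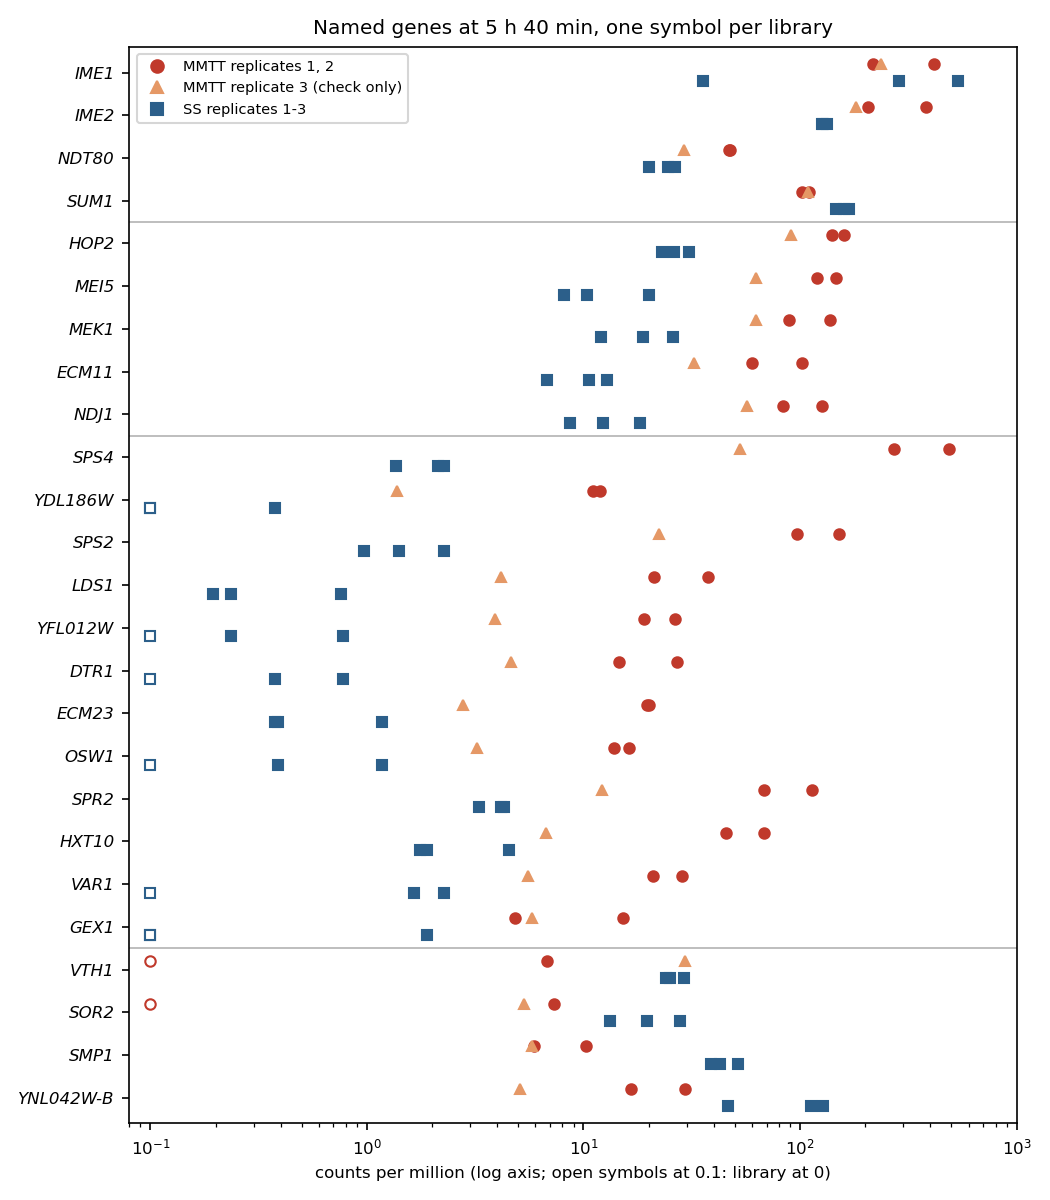
Level in CPM (log axis) of named genes in each library of 5 h 40 min, with MMTT above SS in each line. From top to bottom the blocks are regulators, recombination genes, the 12 genes named as higher and the 4 named as lower. MMTT replicate 3 lies between the other MMTT libraries and SS at most of the higher genes, as at SPS4 with 52.8 CPM.

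Genes of meiotic recombination rose in MMTT as a group, most clearly those of strand exchange and synapsis. Of 43 genes in the 3 lists for double-strand breaks, strand exchange and the chromosome axis with synapsis and crossovers, 30 rose and 0 fell, and 9 were called higher, a share of 20.9% beside the 2.64% of all genes. The median was 1.18 on the log2 scale. Within the axis and synapsis list 18 of 22 rose, with a median of 1.502, and MMTT replicates 1 and 2 lay above every SS library at 20 of 22, against 22.7% of all genes tested. Its summed level was 2419 and 1764.5 CPM in MMTT (1363 in replicate 3) and 762, 859 and 782 CPM in SS. The 7 called were MER1 (3.60), a splicing activator, GMC2 (3.38) and ECM11 (2.97), partners in the synaptonemal complex, SPO16 (3.06), a crossover factor, NDJ1 (2.98), which tethers telomeres, MEK1 (2.57), the checkpoint kinase, and SPO13 (2.03), which keeps sister chromatids together in the first division.

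Among them, MEK1 (YOR351C) had 138 and 88.7 CPM in MMTT (62.5 in replicate 3) and 18.9, 25.9 and 12.02 CPM in SS (log2 fold change 2.57, SE 0.30, adjusted p = 4.0e-07). ECM11 (YDR446W) had 102 and 60.3 CPM in MMTT (32.3 in replicate 3) and 6.80, 12.8 and 10.6 CPM in SS (2.97, SE 0.35, adjusted p = 4.0e-07). In both, all 3 MMTT libraries lay above all SS libraries, with replicate 3 lowest of the MMTT ones. The axis proteins REC8, the meiotic cohesin, and HOP1 rose by less, at 1.83 and 1.36, and MSH5, which with MSH4 marks crossovers, rose by 1.84 (adjusted p = 1.4e-06).

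In the strand exchange list 7 of 10 rose, with a median of 1.40, and HOP2 and MEI5 were called. HOP2 (YGL033W), which makes pairing specific to homologs, had 160 and 140 CPM in MMTT (91.3 in replicate 3) and 26.1, 22.9 and 30.6 CPM in SS (log2 fold change 2.5, SE 0.33, adjusted p = 2.7e-06). MEI5 (YPL121C), a loader of the recombinase Dmc1, had 147 and 119 CPM in MMTT (62.7 in replicate 3) and 20.02, 8.17 and 10.4 CPM in SS (3.44, SE 0.48, adjusted p = 4.7e-06). The libraries of the strains were well separated at both genes. DMC1 itself rose by 1.65.

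The genes for making double-strand breaks moved less. In that list 5 of 11 rose, none fell, 0 were called and the median was 0.11. REC114 rose by 1.69 (SE 0.32, adjusted p = 3.0e-04), and SPO11 (YHL022C), the nuclease that cuts the DNA, had 49.3 and 39.5 CPM in MMTT (27.9 in replicate 3) and 16.6, 20.03 and 21.7 CPM in SS, a log2 fold change of 1.18 (adjusted p = 0.0047). Without MMTT replicate 1 the adjusted p was 0.062 for SPO11, 0.13 for REC104 and 0.23 for REC102, which also did not pass without SS replicate 2 or 3 (0.086 and 0.11).

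Premeiotic DNA replication genes were mixed, with 10 of 23 higher, 2 lower, 0 called and a median of 0.37. Over all genes tested 11.6% were higher and 11.9% lower. The subunits of ribonucleotide reductase, which makes deoxynucleotides, went in opposite directions. RNR1 (YER070W), the large subunit, had 168 and 144 CPM in MMTT (107 in replicate 3) and 37.4, 37.7 and 49.7 CPM in SS (log2 fold change 1.90, SE 0.23, adjusted p = 5.4e-07). RNR4, a small subunit, had 369 and 423 CPM in MMTT (533 in replicate 3) and 814, 711 and 812 CPM in SS (-0.98, SE 0.14, adjusted p = 4.7e-06), and RNR2, the other, fell by 0.74. Histone genes had a median of 0.66, with 4 of 10 higher and 0 called, among them HTB2, a histone H2B gene, at 1.04 (adjusted p = 0.01, and 0.14 without MMTT replicate 1). Several histone genes have near-identical copies, so their single values are uncertain.

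Many genes of the divisions and of spore formation rose in MMTT, and those called were near silence in SS, with medians of 44.0 CPM in MMTT and 2.20 CPM in SS. Of 70 genes in 4 lists (meiotic divisions, prospore membrane and spindle pole plaque, spore wall, and other genes named for sporulation), 37 rose, 1 fell and 18 (25.7%) were called higher, with a median of 0.82. The spore wall list had a median of 1.68 and 8 of 20 called, the list of other sporulation genes 1.04 and 4 of 13, the prospore membrane list 0.79 and 5 of 21, and the divisions 0.39 and 1 of 16, which was SMK1.

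SPS4 (YOR313C), a gene induced in sporulation but not required for it, had the largest value of the named genes. It reached 485 and 271 CPM in MMTT (52.8 in replicate 3), against 2.27, 1.36 and 2.12 CPM in SS (log2 fold change 7.65, SE 0.86, adjusted p = 1.6e-07). SPS2 (YDR522C), which organises the glucan layer of the spore wall, had 152 and 96.6 CPM in MMTT (22.4 in replicate 3) and 2.27, 0.972 and 1.41 CPM in SS (6.41, SE 0.86, adjusted p = 3.0e-06). At both genes replicate 3 lay well below the other MMTT libraries and still above every SS library.

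LDS1, a spore wall protein of lipid droplets, rose by 6.33, DTR1, a putative exporter of the dityrosine precursor, by 5.55, OSW1, needed for the outer wall, by 4.63, and the putative wall protein SPR2 by 4.53 (SE 0.69 to 0.90, adjusted p = 1.7e-05 at SPR2 and 4.9e-05 at OSW1). SPR2 (YOR214C) had 114 and 68.2 CPM in MMTT (12.2 in replicate 3) and 4.15, 4.28 and 3.30 CPM in SS. The others had 13.9 to 37.7 CPM in MMTT replicates 1 and 2 and at most 1.18 CPM in SS. In the prospore membrane list SPO19 rose by 3.84, SPO77 by 3.80, SPO74, of the meiotic spindle pole plaque, by 3.68, SPO75 by 3.04 and SMA2 by 2.59, while the septin gene SPR28 reached 1.91, under the fold threshold. SPO74 (YGL170C) had 60.6 and 52.7 CPM in MMTT (22.1 in replicate 3) and 7.93, 3.31 and 3.06 CPM in SS.

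Not every gene of these lists was higher. SPS100, a late gene for spore wall maturation, was the 1 that fell, at 786 and 711 CPM in MMTT (609 in replicate 3) and 955, 2569 and 2176 CPM in SS (log2 fold change -1.34, SE 0.35, adjusted p = 0.006). SPS1 (YDR523C), a kinase for closing the prospore membrane, is the upstream neighbour of SPS2 on chromosome IV, yet had 67.7 and 46.1 CPM in MMTT (14.7 in replicate 3) and 51.7, 31.5 and 47.8 CPM in SS. Its strains overlapped, and the log2 fold change of 0.39 did not pass the test (adjusted p = 0.58).

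**Figure D3:**
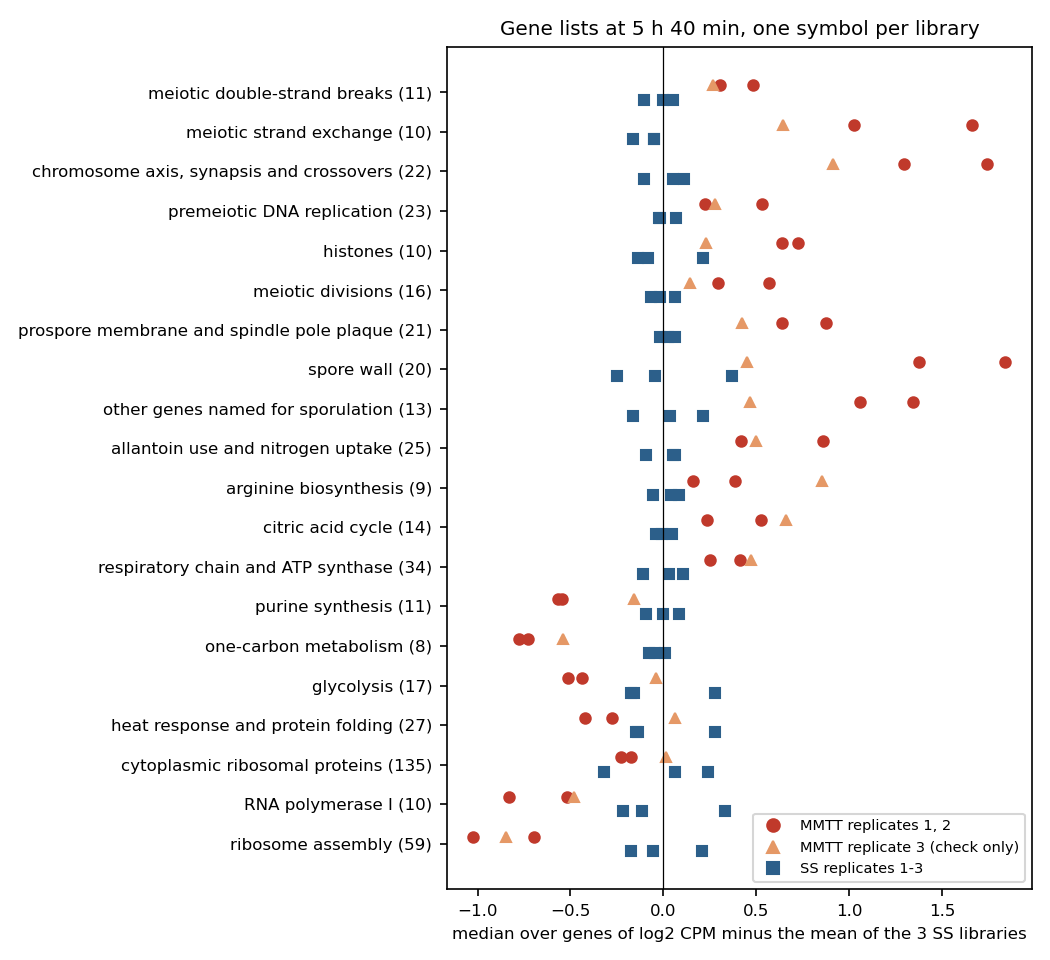
Median over the genes of each list of the log2 CPM minus the mean of the 3 SS libraries, for each library of 5 h 40 min, with MMTT above SS in each line and the number of genes in brackets. Axis and synapsis genes reach 1.74 and 1.29 in MMTT replicates 1 and 2 and 0.91 in replicate 3, and ribosome assembly genes lie at -0.70, -1.02 and -0.84 in the 3 MMTT libraries.

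Of the 12 genes named as higher, 6 were in none of these 4 lists. YDL186W, of unknown function, had 69 counts in the 2 MMTT libraries and 1 in the 3 SS libraries, a depth-scaled ratio of 139 with a 95% counting interval of 24.1 to 5554. YFL012W, transcribed in sporulation, and HXT10, a hexose transporter gene, are neighbours on chromosome VI and rose by 5.68 and 4.504. ECM23, of uncertain function, rose by 4.83 (SE 0.80, adjusted p = 5.3e-05). GEX1, a glutathione exchanger, reached 4.35 (SE 1.6, adjusted p = 0.044), but it has a near-identical copy, GEX2, and lost its call without MMTT replicate 1 or 2 or SS replicate 2 or 3 (adjusted p = 0.052, 0.31, 0.15 and 0.14). The sixth, VAR1, belongs to the mitochondrial genome.

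Of the 9 genes called lower, 4 have an R64 entry and a mean of at least 10 CPM in SS. SMP1 (YBR182C), a transcription factor of the osmotic stress response, had 10.3 and 5.89 CPM in MMTT (5.76 in replicate 3) and 42.7, 38.9 and 51.6 CPM in SS. The log2 fold change was -2.44 (SE 0.42, adjusted p = 8.3e-05), and all 3 MMTT libraries lay below all SS libraries. At the sampling times before and after, its mean was 10.1 and 13.7 CPM in MMTT and 14.5 and 17.5 CPM in SS.

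The other 3 rested on less. VTH1, a putative sorting receptor with near-identical copies, had 6.77 and 0 CPM in MMTT replicates 1 and 2 but 29.5 in replicate 3, against 24.2, 25.1 and 29.0 CPM in SS, and its log2 fold change of -2.90 (adjusted p = 0.02) had an adjusted p of 0.26 without MMTT replicate 2 and 0.29 with replicate 3 added. SOR2, a sorbitol dehydrogenase nearly identical to SOR1, had 0 and 7.27 CPM in MMTT (5.30 in replicate 3) and 27.9, 13.2 and 19.6 CPM in SS (-2.48, adjusted p = 0.035, and 0.31, 0.071 and 0.056 without MMTT replicate 1, SS replicate 1 and SS replicate 3). YNL042W-B, of unknown function, overlaps a non-coding RNA on its own strand. It had 29.3 and 16.6 CPM in MMTT (5.07 in replicate 3) and 127, 46.7 and 112 CPM in SS (-2.04, adjusted p = 0.036), and lost its call without MMTT replicate 1 or 2 or SS replicate 1 or 3, at adjusted p-values of 0.076 to 0.28, and with DESeq2 (0.12).

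Of the 25 genes for allantoin use and nitrogen uptake, 11 rose (44.0%, against 11.6% of all genes), 1 fell and 2 were called (2.64% of all genes were), with a median of 0.46. CAR1 (YPL111W), the arginase that breaks arginine down, had 1118 and 973 CPM in MMTT (1017 in replicate 3) and 338, 207 and 217 CPM in SS (log2 fold change 2.04, SE 0.22, adjusted p = 1.6e-07). DAL3 (YIR032C), an enzyme of allantoin breakdown, had 145 and 79.0 CPM in MMTT (109 in replicate 3) and 21.1, 23.7 and 22.4 CPM in SS (2.32, SE 0.49, adjusted p = 8.7e-04). At both, replicate 3 fell among or near the other MMTT libraries and far above SS. The ammonium transporter gene MEP2 rose by 1.85, the urea genes DUR12 and DUR3 by 1.60 and 1.51, and GAP1, the general amino acid permease, by 1.20 (adjusted p = 0.0017, and 0.077 without MMTT replicate 1).

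Nutrient transporters of other kinds differed gene by gene. SUL1 (YBR294W), a high-affinity sulfate permease, had 69.9 and 37.4 CPM in MMTT (76.7 in replicate 3) and 1.13, 7.78 and 7.78 CPM in SS (log2 fold change 3.16, SE 0.46, adjusted p = 7.0e-06). It was the 1 called among 20 genes of sulfate uptake and methionine synthesis, whose median was -0.23. Of the 12 hexose transporters, HXT6, HXT8 and HXT10 were called higher, against 2.64% of all genes. HXT2, a transporter of low glucose, had 53.2 and 49.9 CPM in MMTT (77.7 in replicate 3) and 56.3, 262 and 220 CPM in SS. SS replicate 1 was at the MMTT level, and the value of -1.81 (adjusted p = 0.014) did not hold without either MMTT library or SS replicate 2 (adjusted p = 0.083, 0.13 and 0.065). HXT6 and HXT7 are near copies and had 2.18 (adjusted p = 7.8e-05) and 1.01 (0.017), the second not passing without MMTT replicate 2 or SS replicate 2 or 3 (0.17, 0.08 and 0.066). Phosphate uptake genes had 3 of 13 higher and 1 lower, against 11.6% and 11.9% of all genes. All 8 zinc uptake genes had negative values, with 3 of 8 passing the test (median -0.61), led by the transporter gene ZRT2 at -0.91.

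Amino acid biosynthesis showed single genes higher in MMTT. ARG4 (YHR018C), the last enzyme of arginine synthesis, had 539 and 534 CPM in MMTT (958 in replicate 3) and 156, 182 and 180 CPM in SS (log2 fold change 1.64, SE 0.27, adjusted p = 4.2e-05). ARG1, the enzyme before it, rose by 1.24, and 0 of the 7 other arginine genes passed the test (list median 0.27). In histidine synthesis 3 of 7 rose (median 0.21), with HIS3 at 1.25 and 0 lower. In aromatic amino acid synthesis 4 of 14 rose (median 0.39), with ARO8 at 1.11. Over all genes tested 11.6% were higher. The branched-chain list had 3 of 11 higher and 2 lower, LEU1 at -0.99 and the mitochondrial transaminase gene BAT1 at -0.78, while its cytosolic counterpart BAT2 rose by 0.85. Without MMTT replicate 2 the adjusted p was 0.077 for LEU1, 0.14 for BAT1 and 0.18 for BAT2, and without MMTT replicate 1 it was 0.054 for BAT1. Of the 8 lysine genes, LYS5 rose, by 0.87. In MMTT replicate 3 fitted alone the medians were higher, at 0.87 for arginine, 1.00 for histidine and 0.82 for aromatic amino acids.

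Some genes of respiratory metabolism were higher in MMTT and some of glycolysis lower. In the citric acid cycle 6 of 14 rose and 0 fell, with a median of 0.38, and IDH1 (YNL037C), a subunit of isocitrate dehydrogenase, had 3069 and 3568 CPM in MMTT (3464 in replicate 3) and 1542, 1509 and 1653 CPM in SS (log2 fold change 1.08, SE 0.14, adjusted p = 2.2e-06). Of 18 genes of acetate use, the glyoxylate cycle and gluconeogenesis 6 rose and 0 fell (median 0.43), among them PCK1, the key enzyme of gluconeogenesis, at 0.98 (adjusted p = 0.026) and MLS1, malate synthase, at 0.82 (adjusted p = 0.0041). MLS1 did not pass the test without MMTT replicate 2 (0.12), nor PCK1 without MMTT replicate 1 or 2 or SS replicate 1 or 3 (0.063 to 0.13). Respiratory chain and ATP synthase genes of the nucleus had 11 of 34 higher and 0 lower (median 0.30), against 11.6% of all genes higher. Mitochondrial ribosomal proteins had 9 of 65 higher, a share of 13.8% that was near this background, and 1 lower (median 0.16). Peroxisomal genes had 4 of 17 higher (0.27), led by PEX11 at 0.98. In glycolysis 7 of 17 fell, against 11.9% of all genes, and 0 rose (median -0.42), but the median was -0.04 in replicate 3 alone. Relative to the SS mean, SS replicate 1 had a list median of 0.28, and SS replicates 2 and 3 had -0.16 and -0.17. MMTT replicates 1 and 2 had -0.51 and -0.44. ENO1, an enolase, was at -1.31, and the glyceraldehyde-3-phosphate dehydrogenase genes TDH1 and TDH2 were at -1.23 and -1.04, but each of these has a near-identical copy.

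One-carbon metabolism and purine synthesis were lower. SHM2 (YLR058C), the cytosolic serine hydroxymethyltransferase, had 388 and 371 CPM in MMTT (509 in replicate 3) and 1495, 1342 and 1373 CPM in SS (log2 fold change -1.89, SE 0.19, adjusted p = 2.8e-08). This was the smallest adjusted p of the lists' named genes. GCV1, of the glycine cleavage system, had 378 and 375 CPM in MMTT (525 in replicate 3) and 1325, 921 and 951 CPM in SS (-1.5, SE 0.17, adjusted p = 1.6e-07). The MMTT libraries lay below all SS libraries at both genes. In all, 5 of 8 one-carbon genes (median -0.78) and 8 of 11 purine genes (median -0.54) fell, against 11.9% of all genes. ADE17 was at -1.29 and ADE2 at -1.06, and 0 genes rose in either list.

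Of 27 genes of the heat response and of protein folding, 8 fell (29.6%, against 11.9% of all genes) and 1 rose (HSP10, a mitochondrial chaperonin, at 1.08), with a median of -0.43 that was 0.015 in replicate 3 alone. Relative to the SS mean, SS replicate 1 had a list median of 0.28, and SS replicates 2 and 3 had -0.13 and -0.15. BTN2 (YGR142W), a sequestrase that gathers misfolded proteins, had 3088 and 2658 CPM in MMTT (2718 in replicate 3) and 9933, 7813 and 9537 CPM in SS (log2 fold change -1.66, SE 0.29, adjusted p = 1.1e-04). SSA4, a stress-induced Hsp70, had 1180.1 and 1052 CPM in MMTT (1096 in replicate 3) and 2451, 2579 and 2864 CPM in SS (-1.24, adjusted p = 4.2e-04). SSA2, which shares near-identical sequence with SSA1, was at -1.42. The list of general stress and trehalose genes was mixed, with 4 of 25 higher and 6 lower (median -0.14), autophagy had 1 of 17 higher, and the proteasome 1 of 33. Of 10 inositol and phospholipid genes 4 rose, led by INO1 at 1.47 (adjusted p = 5.1e-04).

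Ribosome assembly had the most genes lower in MMTT of the 39 lists described. Of 59 genes 46 fell and 0 rose, a share of 77.97% lower beside 11.9% of all genes tested, with a median of -0.88, although 0 passed the fold threshold. The summed level was 3804 and 3160.4 CPM in MMTT (3442 in replicate 3) and 6393, 5389 and 7103 CPM in SS, so the strains did not overlap. NSR1 (YGR159C), a nucleolar protein of rRNA processing, had 46.7 and 31.2 CPM in MMTT (35.0 in replicate 3) and 103, 136 and 201 CPM in SS (log2 fold change -1.92, SE 0.34, adjusted p = 1.4e-04). SPB1, a methyltransferase of the large subunit, was at -1.44 (adjusted p = 2.4e-05), NOP15 at -1.22 and RRP5 at -1.11. RNA polymerase I, which transcribes the rRNA genes, had 6 of 10 subunits and factors lower (median -0.80), with RPA190, its largest subunit, at -1.10 (adjusted p = 0.0045, and 0.17 without MMTT replicate 2).

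The ribosomal proteins themselves differed less. Of 135 cytoplasmic ribosomal protein genes 16 fell (11.9%, the same share as over all genes), 1 rose (RPL39, at 1.01) and the median was -0.26. Relative to the SS mean, the list median was -0.17 and -0.23 in MMTT replicates 1 and 2 and 0.065, -0.32 and 0.24 in the SS libraries, so the strains overlapped. RPL3 and RPL13A had the lowest values, at -0.95 each. Many of these genes exist as near-identical pairs, so their single values are uncertain.

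Transcripts of the mitochondrial genome were higher in MMTT, at low levels. The libraries were made after mRNA isolation from total RNA, and how much mitochondrial RNA this step kept in each library was not tested. Of 22 tested, 17 were called, against 2.64% of all genes, with a median of 3.20. OLI1 (Q0130), a subunit of the ATP synthase, had 187 and 176 CPM in MMTT (49.8 in replicate 3) and 22.3, 14.0 and 42.6 CPM in SS (log2 fold change 2.78, SE 0.63, adjusted p = 0.0018). VAR1 (Q0140), a mitochondrial ribosomal protein, had 20.9 and 28.4 CPM in MMTT (5.53 in replicate 3) and 2.27, 0 and 1.65 CPM in SS (4.37, SE 1.3, adjusted p = 0.014), and lost its call without MMTT replicate 2 (0.078) or SS replicate 2 (0.072). Genes within the introns of COX1 and COB overlap those genes, so reads between them cannot be told apart.

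The share of all counts from the mitochondrial genome was 0.0798% and 0.0975% in MMTT (0.0294% in replicate 3) and 0.0192%, 0.00852% and 0.0199% in SS. At the other times it ranged from 0.0085% to 0.136% in MMTT (median 0.0333%) and from 0.00638% to 0.0673% in SS (median 0.0202%), so both strains held libraries with several times their median share. Nuclear genes without an R64 entry took 0.531% and 0.707% of counts in MMTT (0.440% in replicate 3) and 0.614%, 0.250% and 0.355% in SS. The mitochondrial share was higher in both MMTT libraries than in every SS library, whereas the share of nuclear genes without an entry overlapped between the strains, and their part in the calls among these genes was not tested.

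The strain difference at 5 h 40 min was not shown to differ from that at 3 h 50 min. In edgeR's test of the difference between the 2 strain differences 0 genes were called in either direction, 2 (0.0332%) had an adjusted p under 0.05 with a larger difference at 5 h 40 min and 0 with a smaller one, and 572 and 455 had an unadjusted p under 0.05. DESeq2 called 0 and 0, with 15 and 15 at an adjusted p under 0.05 and 594 and 485 at an unadjusted one. Separately, 91 genes (1.51%) were called higher at 3 h 50 min and 9 (0.149%) lower, and 60 of those higher were called at both times, 37.7% of the genes at 5 h 40 min and 65.9% of those at 3 h 50 min. The ribosome assembly median was -0.30 at the earlier time and -0.88 at the later, and the RNA polymerase I median -0.02 and -0.80. Those of axis and synapsis genes were 1.82 and 1.502.

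The strain difference at 5 h 40 min differed from that at 8 h 30 min at many genes, some of them in the division and spore lists and most outside them. The strain difference was smaller at 5 h 40 min for 137 genes (2.27%), 42 of them in the division and spore lists. It was larger for 83 (1.38%), none of them in those lists or the recombination lists. In both comparisons of times, smaller and larger refer to signed values (MMTT over SS), so a less negative difference counts as larger. The count of 83 became 43 without MMTT replicate 2 and 48 without SS replicate 2. At the 137 the median strain difference was 0.68 at 5 h 40 min and 3.98 at 8 h 30 min. SPS1 had the most negative such value of the named genes, -6.14, since its mean at 8 h 30 min was 1082 CPM in MMTT and 11.6 CPM in SS. RRT5, of unknown function and high in sporulation, and YDR042C, uncharacterised, followed at -5.51 and -5.26.

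The median of the spore wall list was 1.28, 1.68 and 4.87 at the 3 times, and that of the prospore membrane list 0.77, 0.79 and 3.82. NDT80 had strain differences of 0.87, 0.98 and 4.001 and a mean at 8 h 30 min of 471 CPM in MMTT and 29.4 CPM in SS. The recombination lists also had smaller strain differences at 5 h 40 min than at 8 h 30 min, at 16 of 43 genes at an adjusted p under 0.05, against 50 of 70 in the division and spore lists and 9.43% of all genes. Their medians at the 3 times were 0.93, 0.11 and 1.92 for double-strand breaks (5 of 11 smaller), 1.34, 1.40 and 2.25 for strand exchange (2 of 10) and 1.82, 1.502 and 2.65 for the axis and synapsis (9 of 22).

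**Figure D4:**
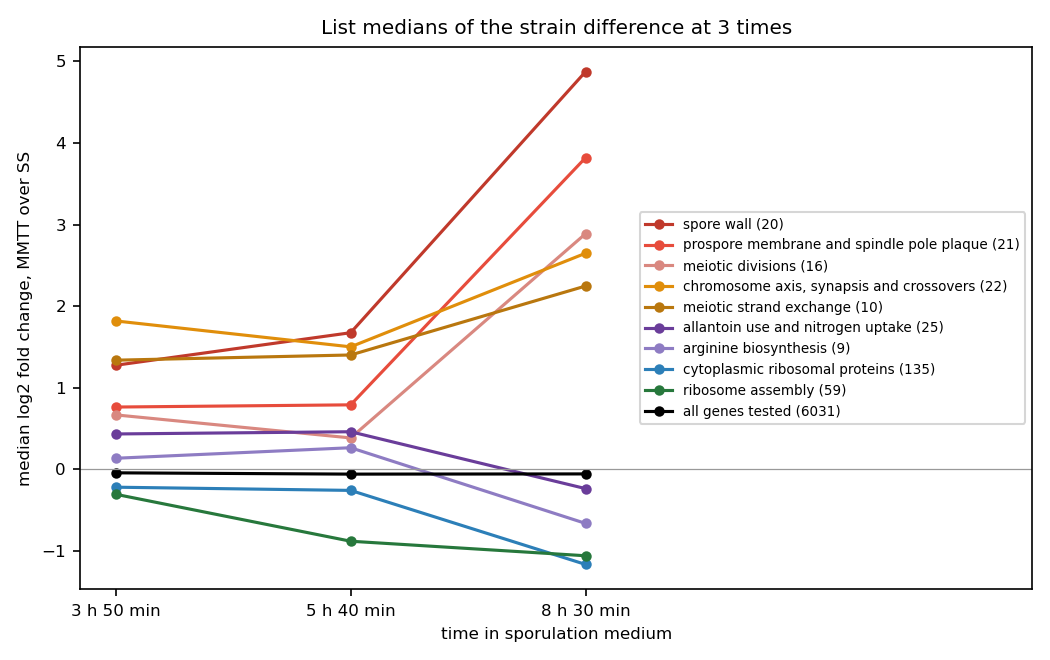
Median log2 fold change, MMTT over SS, of each list at the last 3 sampling times (3 h 50 min to 8 h 30 min), with the number of genes in brackets and a line per list. The spore wall list lies at 1.28, 1.68 and 4.87, while ribosome assembly lies at -0.30, -0.88 and -1.06.

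The 83 genes with a larger difference at 5 h 40 min had medians of 2.37 at that time and -1.58 at 8 h 30 min, and 27 of them have an R64 entry, 11 of the 83 being of the mitochondrial genome. The named ones with the largest values, YCR013C (4.66), YKL153W (4.28) and YAL037C-B (4.13), have no R64 entry. Over the alternative runs their strain differences at 5 h 40 min ranged, in this order, from 1.97 to 3.07, 0.092 to 1.68 and 1.71 to 2.52. YKL153W and YAL037C-B did not pass the test of the strain difference at 5 h 40 min itself. YCR013C passed it, but not without SS replicate 2 or 3. Among nutrient genes, DAL3 was higher in MMTT by 2.32 at 5 h 40 min but had -0.27 at 8 h 30 min, and SUL1 had 3.16 and 0.70. SUL1 was high in MMTT from the start, with a mean of 49.1 CPM in MMTT and 7.91 CPM in SS at 0 h. BTN2 had a strain difference of -1.66 at 5 h 40 min and of -3.88 at 8 h 30 min, with means of 479 CPM in MMTT and 7028 CPM in SS at 8 h 30 min. Cytoplasmic ribosomal protein genes had a median of -0.26 at 5 h 40 min, against -1.16 at 8 h 30 min, and for 64 of 135 the value at 5 h 40 min was the less negative at an adjusted p under 0.05, against 5.7% of all genes with a larger value.

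**Figure D5:**
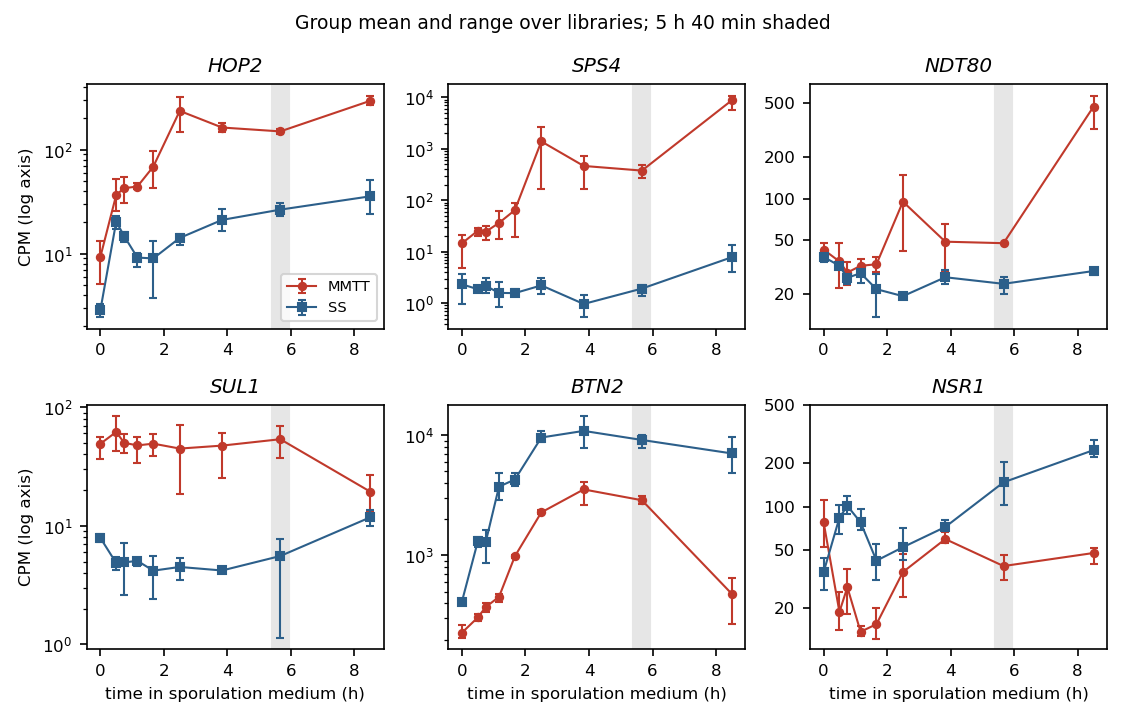
Mean CPM (log axis, bars give the range over libraries) of 6 genes over 9 time points in MMTT and SS, with 5 h 40 min shaded. The means of SPS4 and HOP2 are higher in MMTT at every time, those of NDT80 are 471 CPM in MMTT and 29.4 CPM in SS at 8 h 30 min, and that of NSR1 is lower in MMTT at every time but 0 h.

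MMTT replicate 3, not used in the tests above, differed from the other MMTT libraries in size at many genes and in direction at some. It lay above all SS libraries at 132 of the 159 genes called higher, against 29.3% of all genes tested, but below both other MMTT libraries at 142. At the genes called lower it lay below all SS libraries at 6 of 9, against 25.6%. Since the called genes were chosen with these SS libraries, nothing is read from those shares. Set alone against SS, it gave medians of 0.92 for axis and synapsis genes, 0.63 for strand exchange, 0.45 for the spore wall and 0.16 for histones, all smaller than in the 2 libraries tested, but 0.22 for double-strand breaks. SPS1 was at -1.55 and IME1 at -0.26, opposite in sign to their values above. Of the 70 division and spore genes 34 lay above all SS libraries in replicate 3, against 29.3% of all genes tested. Another 14 lay below all SS libraries, against 25.6%. The medians were -0.04 for glycolysis, 0.015 for the heat response, -0.15 for purine synthesis and -0.03 for ribosomal proteins, so these lists were not lower to the same extent in replicate 3, and -0.89 for ribosome assembly, where it lay below all SS libraries at 57 of 59. With it in place of replicates 1 and 2, 23 genes were called higher and 13 lower, and with it added 131 and 11.

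The labelled cell type was checked against genes that a/alpha diploids repress. The 7 markers of haploid a cells summed to 87.3 and 78.6 CPM in MMTT (76.7 in replicate 3) and 80.1, 101 and 90.2 CPM in SS, and 0 of 7 passed the test. The alpha-cell markers summed to 64.8 and 48.1 CPM in MMTT (46.3 in replicate 3) and 20.4, 79.1 and 59.1 CPM in SS, with MF(ALPHA)1, the alpha pheromone gene, called at a log2 fold change of 2.04, with 10.6 and 7.62 CPM in MMTT and 1.51, 2.33 and 2.59 CPM in SS (adjusted p = 0.0067, and 0.069 without MMTT replicate 1). Of 9 haploid-specific genes STE4 and STE18, the G protein subunits of the pheromone pathway, rose, by 0.75 (adjusted p = 0.26 without MMTT replicate 2 and 0.095 without SS replicate 2) and 2.20. The 9 summed to 169 and 189 CPM in MMTT (151 in replicate 3) and 146, 144 and 142 CPM in SS. These markers were low but not at 0 in both strains, and what share haploid cells hold was not tested.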

How the data were processed

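Strand-specific libraries of both strains at 9 time points, made after mRNA isolation from total RNA, were deposited as raw counts of reads per gene. The authors made the counts by removing ribosomal RNA reads, aligning to S288c with STAR and counting on genes in a Snakemake workflow. The sources used here do not give versions, the annotation, the build's version or how strand was handled in counting, so overlapping and antisense genes are uncertain. Of 6571 genes, 5906 matched R64 (RefSeq).

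Genes reaching 3 CPM in 3 or more of 49 libraries were tested with edgeR 4.0.16 (R 4.3.3, limma 3.58.1): TMM factors, 1 mean for each of 18 groups, robust quasi-likelihood test, Benjamini-Hochberg adjustment. CPM use TMM factors. The SE was approximated from the fold change (log2 scale) and the square root of the F statistic. A list gene "rose" or "fell" at an adjusted p under 0.05, and was called at an absolute log2 fold change over 2 as well. The code was tested on simulated counts. Alternatives included DESeq2 1.42.0. Python 3.11.15 (pandas 2.3.3, numpy 2.4.6) and matplotlib 3.10.9 served for summaries. Near copies were found with blastn 2.17.0, at 90% identity over 100 bases.

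The comparison, the 39 lists (808 entries, 803 genes tested) and the tests were chosen with earlier results of these data known. Named by rule were MKT1 and TAO3, 6 regulators, the 12 called genes highest in fold with an R64 entry, non-overlapping strains and at least 10 CPM in MMTT, up to 9 lower ones by the same rule in SS, up to 4 genes per list by adjusted p, and up to 3 per direction for the comparison of times. Other named genes were chosen after their values were seen.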

Additional observations from a re-analysis of the deposited data

Results flagged for a closer look

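The strain difference at 5 h 40 min differed from that at 8 h 30 min, by edgeR's test of the difference itself, at 83 genes in the upward and 137 in the downward direction. Among the genes named, the values (log2, 5 h 40 min minus 8 h 30 min) were negative for the regulators IME2 (-2.23) and NDT80 (-3.02), and for the spore and division genes SPS1 (-6.14), SPR2 (-4.55), OSW1 (-4.28), SMK1 (-4.13), SPO19 (-3.91), MIP6 (-3.71), SPO74 (-2.99), SPR28 (-2.89) and AMA1 (-2.88). They were also negative for RRT5 (-5.51), YDR042C (-5.26), HXT10 (-3.79), SOR2 (-3.16), LEU1 (-2.59) and SMP1 (-2.09). They were positive for YCR013C (4.66), YKL153W (4.28), YAL037C-B (4.13), YNL042W-B (3.73), DAL3 (2.58), SUL1 (2.46) and BTN2 (2.21), where for YNL042W-B and BTN2 the strain difference was negative at both times and more so at 8 h 30 min. LEU1 had opposite signs, -0.99 at 5 h 40 min and 1.60 at 8 h 30 min. SMP1 and SOR2 were lower in MMTT at 5 h 40 min, so their negative values do not mean a smaller size of the difference at that time.

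MMTT replicate 3, outside the comparison, lay above all SS libraries at 132 of the 159 genes called higher, which were chosen with these same SS libraries.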

How the results depend on the processing

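The named genes kept their direction under every alternative run except where given here. With 159 genes higher and 9 lower as reported, DESeq2 size factors, no filter, a filter at 0.5 CPM, DESeq2's test and replicate 3 added gave 131 to 172 higher and 7 to 11 lower. A fold threshold of 1 gave 338 and 140, all 54 libraries 94 and 11, and a fit of the contrast's own time points 51 and 2. Leaving out 1 library gave 94 to 187 higher and 4 to 14 lower, where a lone MMTT library was assumed to vary like other groups. Against 8 h 30 min, 83 larger and 137 smaller became 201 and 375 at the fold threshold of 1, 49 and 130 with all 54 libraries, and 43 to 87 and 110 to 145 with 1 library left out. Against 3 h 50 min, 0 and 0 became 2 and 0 at the fold threshold of 1, and 0 to 5 and 0 to 2 with 1 library left out. Equal replicate numbers showed no pairing of libraries across the strains. Over all times their deviations from the group mean correlated at a mean of -0.069 (-0.32 to 0.19), and those of unequal numbers at 0.035 (-0.41 to 0.39). At 5 h 40 min equal numbers gave -0.31 and -0.31, but the deviations of 2 MMTT libraries mirror each other, so these values are not independent. A fit with the replicate number as a block, at 128 higher and 10 lower, was not preferred. In it TAO3 had an adjusted p of 0.055.

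Of the 120 named genes with an adjusted p under 0.05, 82 kept it with any 1 library left out, 46 lost it in the fit of the contrast's own time points, and 1 lost it with DESeq2. Signs turned at small values: UME6 reached 0.0058 in the fit of the contrast's time points, and with 1 library left out MKT1 ranged from -0.31 to 0.074, IME1 from -0.37 to 0.97, UME6 from -0.18 to 0.072 and RME1 from -0.35 to 0.33. SPS1 had -0.038 with all 54 libraries and -0.0041 with replicate 3 added.

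Alternatives chosen after seeing the data were a fit of the 6 libraries of 5 h 40 min alone, with 81 higher and 8 lower and SPS1 at -0.00499, and replicate 3 in place of the others, with 23 higher and 13 lower, and 37 larger and 177 smaller against 8 h 30 min. There MKT1 was 0.12, IME1 -0.26, RME1 0.066, VTH1 0.18, HTB2 -0.094 and SPS1 -1.55. The causes were not tested. Depth limits the largest folds: 9 genes called higher had 0 counts in all SS libraries and 13 had 1 to 3 over them, so their fitted values are no bounds.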
